A study of Ovis aries with 18 samples.

Results

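In sheep (Ovis aries), 4 miRNA rows that carry no sheep miRNA name were examined in luminal extracellular vesicles of the uterus and in its endometrium. They are 20_18845, 1_1871, 13_7667 and 1_3033, which are 4 of the 495 rows of the deposited vesicle table and 4 of the 761 rows of the deposited endometrium table. The tables give for each a known miRNA that has its seed, namely bovine miR-877 for 20_18845, bovine miR-149-5p for 1_1871, mouse miR-7066-5p for 13_7667 and bovine miR-6529a for 1_3033. These rows were chosen by their measured vesicle values: among rows without a sheep name, they had the smallest p-values of those higher after RU486. Their vesicle difference between treatments is therefore a description here and supports nothing.

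All ewes were ovariectomized and received 50 mg of progesterone (P4) each day for 14 days. In the P4+RU486 group, 50 mg of RU486 (mifepristone, an antagonist of the progesterone receptor) was also given each day from day 8 to day 14, and the P4 group received progesterone alone. There were 5 ewes per treatment, all progesterone-treated, and small RNA was sequenced from the endometrium of each and from the luminal vesicles of 4 per treatment. The labels state no age or breed. The vesicle columns name the treatment but not the ewe: P01, P02, P03 and P04 are the P4 libraries, and R01, R02, R03 and R04 those of P4+RU486.

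A miRNA guides silencing complexes to messenger RNAs chiefly through its seed, a short stretch near its 5′ end, so rows that share a seed can share targets without being the same gene. Vesicles released into the uterine lumen carry miRNAs between the endometrium and, in pregnancy, the conceptus. In mammals miR-877 is a mirtron, a miRNA precursor made by splicing of a short intron, here an intron of ABCF1, a gene of translation initiation, while miR-149 lies in an intron of GPC1, which encodes a cell-surface heparan sulfate proteoglycan. In RefSeq's gene table for a different sheep assembly, ARS-UI_Ramb_v3.0, ABCF1 lies on the chromosome numbered as the prefix of 20_18845, and GPC1 on the chromosome numbered as the prefix of 1_1871. A shared seed and a shared chromosome number do not make these rows the named miRNAs.

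The vesicle libraries held 97202 to 1062646 reads in listed rows, so 1 read was worth 1.10 to 10.4 normalized CPM (counts scaled to the library size, after TMM adjustment). P01, P04 and R04 were the shallowest. Rows of the epithelial list (miR-200 seeds and names) took a share of 1.51% ± 0.741 (SD, n = 4) under P4 and of 1.30% ± 0.235 (SD, n = 4) after RU486, with no row under the names miR-141 or miR-429. The other lists held 1.35% and 1.19% (smooth muscle), 0.710% and 0.242% (leukocyte), 0.325% and 0.313% (erythroid), 0.0408% and 0.0272% (stroma) and 0.0362% and 0.0121% (liver or plasma) on average in P4 and P4+RU486. The fall in the liver or plasma list lay in 19_14926, with a log2 difference (P4+RU486 minus P4) of -1.82 (SE 0.45). The other row of that list, miR-194, was not lower, at 0.14 (SE 0.49), and miR-122 and miR-192 matched no row. Of the 15 tested rows of these lists, 0 passed the limma test between treatments, which called 1 of all 229 tested rows. An unadjusted limma p under 0.05 was reached by 3, namely 11_5329, higher with RU486, and 5_29566 and 19_14926, lower. Of the 229 rows, 17 (7.42%) were higher with such a p, and the number lower is not given here. DESeq2 called 1 of the 15 (19_14926) and 4 of the 229. edgeR called 0 of the 15 and 1 of the 229. With depth as a covariate, limma called 1 of the 15 (19_14926) and 6 of the 229. edgeR without a filter called 2 of the 15 (19_14926 and miR-150) and 6 of 495 rows.

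The row with the miR-877 seed, 20_18845, stood at 621, 833, 525 and 811 normalized CPM in P01 to P04 and at 1656, 1165, 2085 and 1650 in R01 to R04. Each library with RU486 lay above each without it. Behind these values were 79 to 478 reads per library. The mean was 697 ± 149.2 (SD, n = 4) under P4 and 1639 ± 376 (SD, n = 4) after RU486. P03, the deepest library, was the lowest of the P4 libraries, and R02 was the lowest with RU486. The coefficient of variation was 21.4% in P4 and 22.9% in P4+RU486, the lowest of the 4 rows in both treatments.

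The row 1_1871, with the miR-149-5p seed, was at 306, 547, 362 and 592 normalized CPM in P01 to P04 and at 1224.85, 614, 1592 and 741 in R01 to R04. In normalized CPM the treatments did not overlap, but R02 at 614 lay just above P04 at 592. By share of reads P04 was above R02, at 0.0635% against 0.0597%. Its reads ranged from 39 in P01 to 333 in R03. With RU486 the libraries divided into R01 and R03, both above the treatment mean of 1043 normalized CPM (coefficient of variation 43.2%, n = 4), and R02 and R04 below it. In P4 the mean was 452 ± 139 (SD, n = 4).

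The row 13_7667, with the miR-7066-5p seed, was at 495, 277, 213 and 735 normalized CPM in P01 to P04 and at 975, 942, 1736 and 814 in R01 to R04. The lowest library with RU486 (R04) was close to the highest in P4 (P04). R03 stood well above the other libraries with RU486, by 0.826 of their range, just under the critical value of Dixon's outlier test. In P4 the 2 shallow libraries P01 and P04 were high, and the deeper P02 and P03 were low. Within treatments its level had a Pearson r of -0.72 with the log2 of the library's reads (n = 8), against a median of 0.19 over all tested rows. This r was -0.44 for 1_3033, -0.35 for 20_18845 and -0.01 for 1_1871, and was not tested for any of the 4. In P4+RU486, however, 13_7667 was lowest in the shallowest library, R04. The means were 430 ± 236 (SD, n = 4) and 1117 ± 418 (SD, n = 4).

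The row 1_3033, with the miR-6529a seed, was the most variable of the 4 on the log2 scale, at 1273, 1726, 221 and 754 normalized CPM in P01 to P04 and 3903, 1462, 2625 and 2412 in R01 to R04. Here the treatments overlapped, because P02 exceeded R02. P03 lay far below the other P4 libraries with 201 reads among its 1062646, where P02 had 922 among 571791. The means were 993 ± 650 (SD, n = 4) and 2601 ± 1005 (SD, n = 4).

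**Figure D1:**
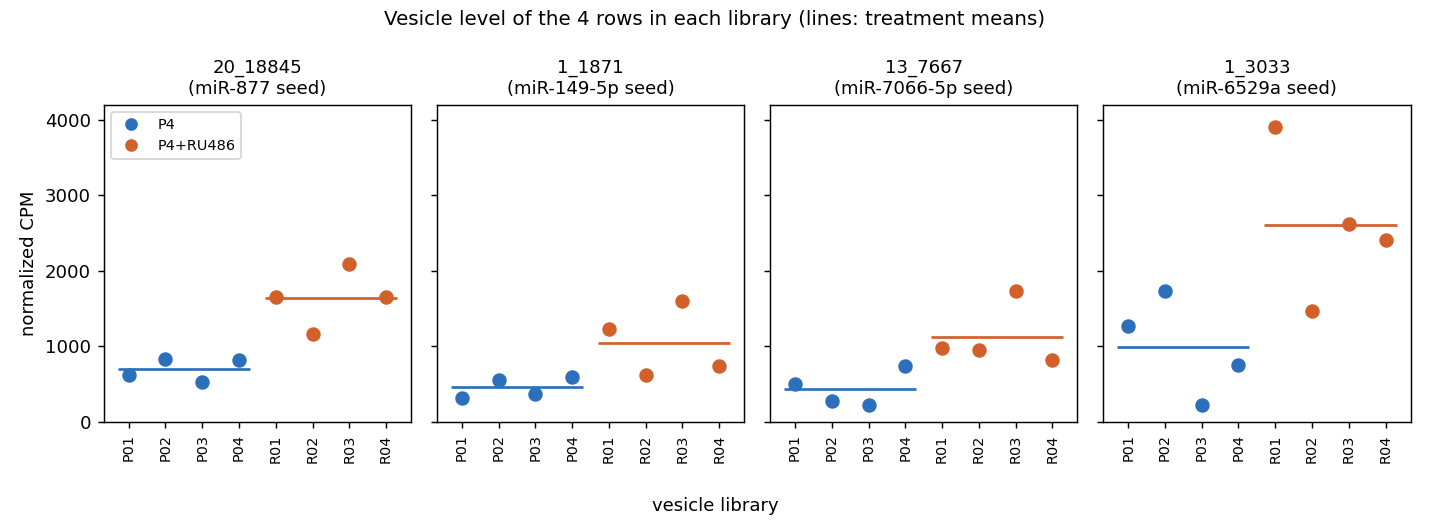
Normalized CPM (vertical axis) of the 4 rows in each vesicle library (horizontal axis), with a line at each treatment mean. On this scale the libraries of both treatments are apart for 20_18845, 1_1871 and 13_7667. They overlap for 1_3033, where P02 (1726) is above R02 (1462).

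The log2 differences (P4+RU486 minus P4, on the log2(value + 1) scale) that chose these rows were 1.23 (SE 0.28) for 20_18845, 1.48 (SE 0.41) for 13_7667, 1.16 (SE 0.37) for 1_1871 and 1.65 (SE 0.55) for 1_3033. None passed the limma test over the 229 rows with a mean of at least 10, with adjusted p-values of 0.109, 0.141, 0.274 and 0.285. In that test 0.00% of rows were called higher with RU486. The single row it called was the lower miR-99a. All 4 had an unadjusted limma p under 0.05, and 17 of the 229 tested rows (7.42%) were higher with RU486 with such a p. edgeR on the recovered reads of the same rows called none of the 4 (0.00% of rows called higher) and DESeq2 called 20_18845 (0.873%). With depth as a covariate limma called 20_18845 (1.75%), and edgeR without a filter on low rows called 20_18845, 13_7667 and 1_3033 (0.606%). In normalized CPM, every P4+RU486 library was above every P4 library in 3 of the 4 rows and in 11 of the 229 tested rows (4.80%). For 1_1871 and 13_7667 this rested on the TMM scaling. By share of reads, 13_7667 was at 0.0789% in P04 and 0.0771% in R04, and 1_1871 at 0.0635% in P04 and 0.0597% in R02. The median difference was 1.35 over the 4 rows and 0.04 over all tested rows. Since this contrast chose the rows, nothing is read from these counts.

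These differences moved when libraries were left out. Without P03, the difference of 1_3033 fell from 1.65 to 1.05 and that of 13_7667 from 1.48 to 1.20. Without R03, that of 1_1871 fell from 1.16 to 0.92. Without the shallow P01, P04 and R04, that of 13_7667 rose to 2.26. With depth as a covariate the differences were 1.19 for 20_18845, 1.15 for 1_1871, 1.32 for 13_7667 and 1.51 for 1_3033. More vesicles that carry a miRNA and more copies in each vesicle cannot be told apart in such libraries.

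The choice ended between 1_3033 and the next rows without a sheep name. Just inside, 1_3033 had an unadjusted p of 0.0110, and 1_1871 one of 0.00838. Just outside, with unadjusted limma p-values of 0.0167, 0.0193 and 0.0213, were 14_9316 with the let-7f seed (difference 0.82), 11_4610 with the miR-744 seed (1.03) and X_35830 with the miR-6119-5p seed (0.83). Of these 3, only 11_4610 had libraries that did not overlap, at 234 to 395 normalized CPM in P4 and 488 to 1401 in P4+RU486. The sheep-named miR-107 and miR-103 also ranked among them, at the second and the sixth place of the rows higher with RU486.

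**Figure D2:**
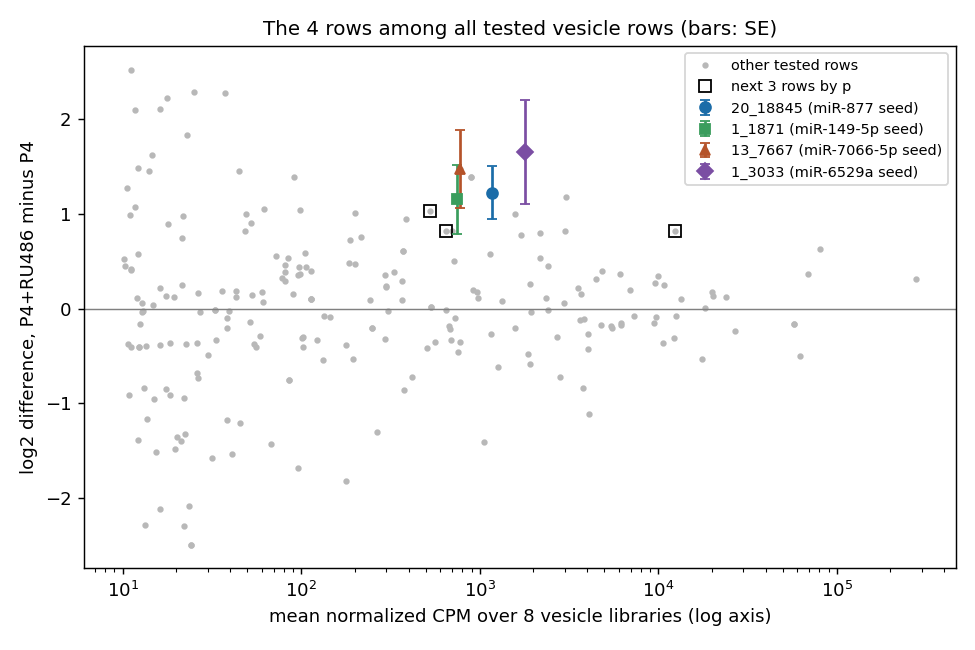
Log2 difference between treatments (vertical axis) against the mean normalized CPM over 8 vesicle libraries (horizontal, log axis) for the 229 tested rows, with SE bars for the 4 rows. The 4 rows lie between 1.16 and 1.65, and of the 16 other rows higher with RU486 by at least 1.16, 13 have a lower mean than any of the 4.

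The 4 rows were moderately abundant. The lowest mean of the 4 was that of 1_1871. Of the 73 tested rows with a mean at least that high, 7 were higher with RU486 by a log2 difference of 1.16 or more. These were the 4 rows and 26_23579 (miR-486 seed), 1_2685 and 5_30487, which were named after their values were seen. The last 2 both have the miR-9-5p seed and the same mean and difference. By their rank within a library, 1_3033 held places 35 to 101, 20_18845 places 51 to 84, 13_7667 places 55 to 102 and 1_1871 places 58 to 95. Together the 4 rows took 0.273% ± 0.108 (SD, n = 4) of all reads under P4 and 0.623% ± 0.188 (SD, n = 4) after RU486. In P03 they took 0.113%, and in the other P4 libraries 0.310% to 0.353%.

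By level, 1_3033 had the highest mean, followed by 20_18845, and then 13_7667 and 1_1871. Because both rows of a ratio come from the same library, it does not depend on the scaling, although reads of different miRNAs are not equally well captured. 20_18845 exceeded 1_1871 in 8 of 8 libraries by 1.31 to 2.23 times, a mean log2 ratio of 0.69 ± 0.30 (SD, n = 8; exact sign-flip permutation p = 0.00781, the smallest possible, and 0.0156 adjusted over 6 pairs). It also exceeded 13_7667 in 8 of 8, by 0.71 ± 0.54 (SD, n = 8; the same exact permutation p and adjusted p). 1_3033 exceeded 13_7667 in 8 of 8 libraries (median ratio 2.06, from 1.03 to 6.23, exact permutation adjusted p = 0.0156). It exceeded 1_1871 in 7 of 8 (median ratio 2.77, from 0.611 to 4.15, exact permutation adjusted p = 0.0352). Neighbours in this order did not all differ beyond their spread. 1_3033 was above 20_18845 in 6 of 8 libraries, by a mean log2 ratio of 0.40 with an SD of 0.80 (exact permutation adjusted p = 0.225). 1_1871 and 13_7667 differed by 0.02 ± 0.61 (SD, n = 8; exact permutation adjusted p = 0.914).

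The 4 rows differed in how much they varied between libraries of a treatment. The within-treatment SD on the log2 scale was 0.33 for 20_18845, 0.55 for 1_1871, 0.66 for 13_7667 and 1.01 for 1_3033. The part that counting error alone gives, from their reads, is 0.11, 0.14, 0.13 and 0.09. Over all tested rows the median SD was 0.66. Of them, 17.5% had an SD no larger than that of 20_18845 and 68.1% one no larger than that of 1_3033. The limma p that chose the 4 rows rests in part on this SD, so the choice favoured a small SD. The tested rows also include many with few reads and a large counting error. Near the median of 349 reads of 1_3033, the SD was 0.33 for miR-16b (345.5 reads), 0.41 for X_36207 (350) and 0.37 for miR-30b (357.5). The reads carry no molecular identifiers, and copies made by PCR are not independent, so the counting error is a lower bound.

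**Figure D3:**
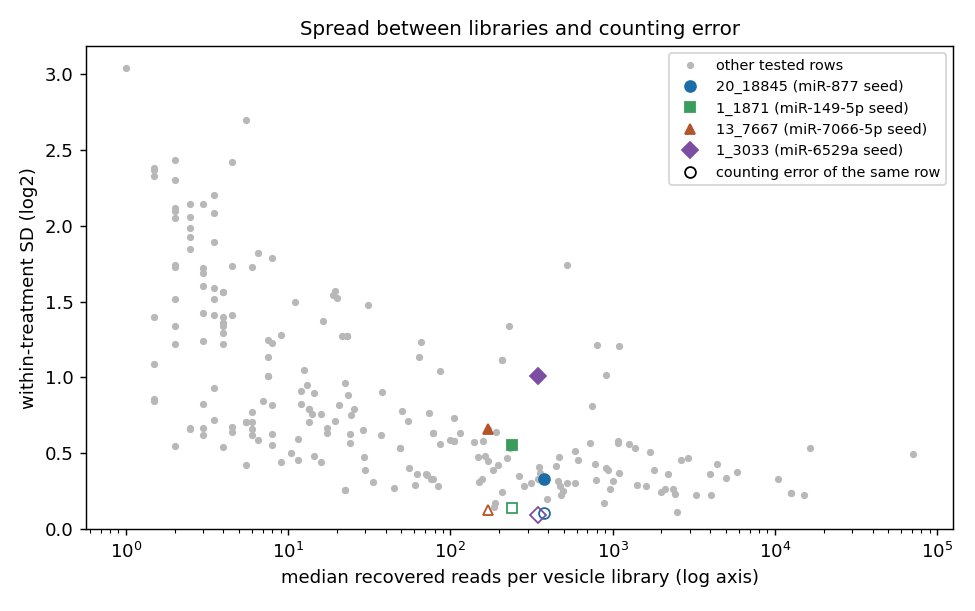
Within-treatment SD (log2, vertical axis) against the median recovered reads per vesicle library (horizontal, log axis) for the 229 tested rows, with open symbols for the counting error of the 4 rows. The SD of the 4 rows runs from 0.33 (20_18845) to 1.01 (1_3033), and their counting errors from 0.09 to 0.14.

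With the treatment means removed, 20_18845 and 1_1871 deviated in the same direction in 7 of the 8 vesicle libraries. Their Pearson r was 0.86 (exact permutation within treatments p = 0.0260, 0.156 adjusted over 6 pairs), and Spearman's rho was 0.86 (exact permutation p = 0.0208, 0.125 adjusted). So this pair did not pass after adjustment. The r was 0.85 in the 4 P4 libraries and 0.87 in the 4 P4+RU486 libraries. It was 0.87 without the 2 libraries farthest from the median of 20_18845 (P03 and R02), and 0.91 with depth removed. Both rows were above their treatment mean in P02, P04, R01 and R03, and below it in P01, P03 and R02. In R04 they parted, with 20_18845 at 0.04 above its mean and 1_1871 at -0.39 from its own.

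The other 5 pairs were looser. 20_18845 with 1_3033 had an r of 0.65 and a rho of 0.55 (exact permutation adjusted p = 0.255 and 0.453), but it rested on P03 and R02, without which r was -0.16. 20_18845 with 13_7667 had an r of 0.52 and a rho of 0.40 (exact permutation adjusted p = 0.328 and 0.453), with r at 0.28 without P03 and R02. 1_1871 with 13_7667 had an r of 0.47 and a rho of 0.45 (exact permutation adjusted p = 0.328 and 0.453), with r at 0.30 without R02 and R03. 1_1871 with 1_3033 had an r of 0.38 and a rho of 0.17 (exact permutation adjusted p = 0.417 and 0.745), with r at 0.34 without the same pair of libraries. 13_7667 with 1_3033 had an r of 0.33 and a rho of 0.14 (exact permutation adjusted p = 0.606 and 0.745). That last r was 0.59 without P04 and R03, the libraries farthest from the median of 13_7667, and -0.41 without P03 alone. In each pair the libraries left out were those farthest in the first-named row only. With depth removed, r was 0.59 for 20_18845 with 1_3033, 0.42 for 20_18845 with 13_7667, 0.66 for 1_1871 with 13_7667, 0.42 for 1_1871 with 1_3033 and 0.02 for 13_7667 with 1_3033.

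All 6 values of r were above 0, with a median of 0.49. Over the 26106 pairs of all tested rows, 51.7% had an r above 0. Their median was 0.02, and the middle 50% lay between -0.34 and 0.39. Of those pairs, 1.86% had an r at least as high as the highest of the 6. That percent sets the highest of 6 against single pairs, so it understates how often 6 pairs would reach such an r. The 6 pairs also share rows and are not independent. All tested rows include many with few reads, and the background pairs were not matched for reads. The libraries share their depth and scaling factor, and the median of the 6 was 0.69 when library totals replaced the TMM scaling. The median over all pairs under that scaling is not given here.

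**Figure D4:**
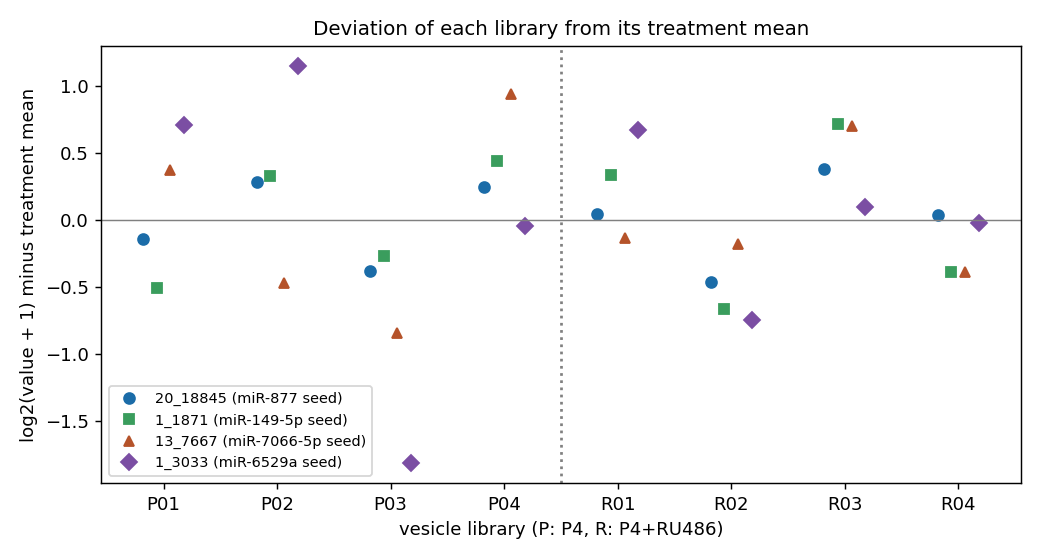
Deviation of log2(value + 1) from the treatment mean (vertical axis) for the 4 rows in each vesicle library (horizontal axis). P03 and R02 are below 0 for all 4 rows, and the point of 1_3033 in P03 is the lowest of all.

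The rows most alike each of these differed from row to row. Likeness was the Pearson r over the 8 vesicle libraries with treatment means removed, among the 228 other tested rows, and the closest are given without a test. For 20_18845 they were 1_1871 (0.86), 1_1041, which has no listed seed and a median of 5.5 reads (0.72), and let-7d (0.71). For 1_1871 they were 20_18845, then 24_22420 with the miR-3432a seed (0.77) and 9_34106 with the miR-30d seed (0.74). For 1_3033 they were 15_10607 with the miR-3960 seed (0.86), 6_31504 with the miR-6769b-5p seed (0.83) and 10_3805 with the miR-92a seed (0.83). The first 2 of these had medians of 7.5 and 6 reads. 10_3805 was a far more abundant row, at 61122 ± 12508 (SD, n = 4) normalized CPM under P4 and 54066 ± 6104 (SD, n = 4) after RU486.

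For 13_7667 the closest row was 26_23579 (r = 0.92), with the seed of miR-486, a miRNA of red blood cells. Next were 24_21767, without a listed seed (0.92), and 18_13295 with the seed of miR-342, which leukocytes express (0.85). 26_23579 is the only row found for the erythroid list, in which miR-451 and miR-144 matched no row. Its level ranged from 281 to 7365 normalized CPM in P4 and from 1848 to 5427 in P4+RU486. On the log2 scale it was 1.18 higher with RU486 (SE 0.90), which did not pass (limma adjusted p = 0.623). Its means were close, at 2862 ± 3343 (SD, n = 4) normalized CPM under P4 and 3189 ± 1695 (SD, n = 4) after RU486. The 3 rows of the leukocyte list (miR-150 and the seeds of miR-142b and miR-155) summed to 1918 to 13883 in P4 and 1645 to 4505 in P4+RU486, and miR-223 matched no row. They did not move alike. The log2 differences were -1.11 (SE 0.55) for miR-150, -0.38 (SE 0.35) for the miR-155 seed and 2.28 (SE 1.03) for the miR-142b seed. None passed (limma adjusted p = 0.334, 0.704 and 0.334), and the miR-142b-seed row had at most 20 reads in a library. The part of blood-cell RNA in the level of 13_7667 was not tested.

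Relatives of the 4 rows were few. No further row of either table was listed with a miRNA of the same number as theirs. Of the 14 names on a list of mirtrons, 3 matched a vesicle row. Besides 20_18845, 1_3203 with the miR-1224 seed was at 20.5 ± 23.0 (SD, n = 4) normalized CPM under P4 and at 22.5 ± 20.3 (SD, n = 4) after RU486, and differed by 0.25 on the log2 scale (SE 0.85, limma adjusted p = 0.913). 19_14548, with the miR-1236-5p seed, had at most 1 read in a library and was not tested.

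Only 1 vesicle row had an identifier numbered within 20 of one of these rows. This was 13_7666, with the miR-6123 seed, whose number precedes that of 13_7667, and it had between 0 and 3 reads in a library. In the authors' deposited endometrium table it had a fold of -1.47 (adjusted p = 0.489), where 13_7667 had one of 1.32. In the same deposited table of the authors, 1_1855, with the miR-331-3p seed and numbered close to 1_1871, had a fold of -2.01 (adjusted p = 0.524).

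The endometrium gave a comparison of the same treatments that the choice of rows did not use. The authors' deposited table gives it as a signed fold without naming the numerator, so the sign is given as coded and is not set against the vesicle direction. In the authors' deposited table the endometrial folds were 1.31 for 20_18845 (adjusted p = 0.269), 1.32 for 13_7667 (0.281), 1.04 for 1_1871 (0.989) and -1.21 for 1_3033 (0.809). None of the 4 passed there, where 1.18% of the 761 rows did. That table of the authors, made with edgeR per the submitters' processing notes, holds no unadjusted p-values. The median size of fold over all its rows was 1.25, and 45.6% of rows had a fold at least as large in size as that of 20_18845, 44.2% as that of 13_7667, 54.9% as that of 1_3033 and 90.1% as that of 1_1871. By adjusted p in the authors' deposited table, 20_18845 and 13_7667 held places 31 and 35, and 1_3033 and 1_1871 places 290 and 640. So 1_3033 was coded with the opposite sign to 20_18845 and 13_7667 in the tissue, although none of the 3 passed. A difference in response between tissue and vesicles was not tested, and tissue levels per library were not analysed here.

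**Figure D5:**
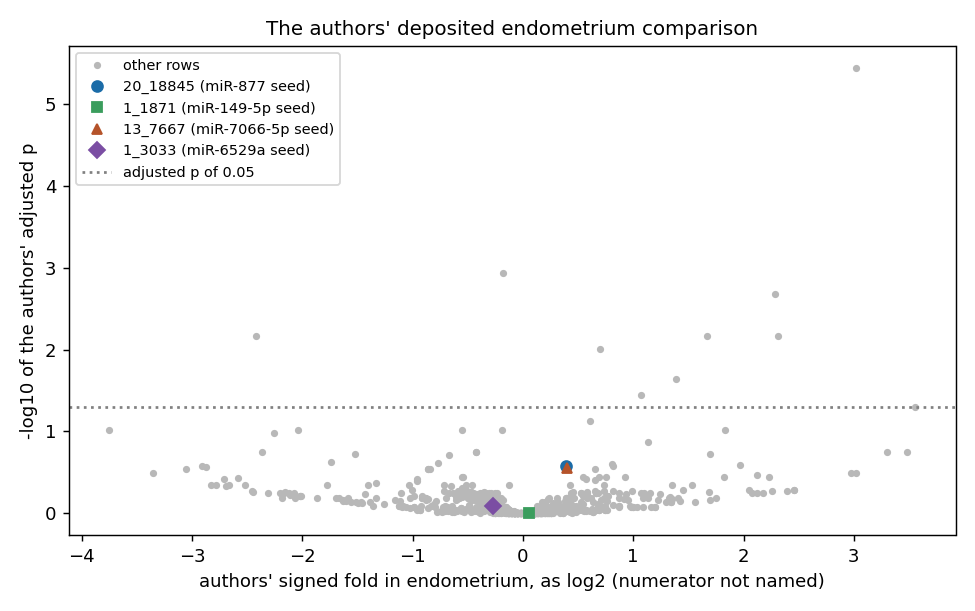
The authors' adjusted p in endometrium (as −log10, vertical axis) against their signed fold (as log2, horizontal axis) for 761 rows, with a line at an adjusted p of 0.05. The 4 rows are all below the line, with 20_18845 and 13_7667 nearly at the same point and 1_1871 close to 0 on both axes.

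In vesicles the authors' deposited table gives folds of -2.35 for 20_18845, -2.26 for 1_1871, -2.79 for 13_7667 and -2.57 for 1_3033, a negative fold being higher with RU486 there. The authors' adjusted p-values in that deposited table were 0.83, 0.77, 0.69 and 0.85, where 0.606% of rows passed with a negative fold. By that adjusted p, 13_7667 held place 54 and 1_1871 place 72 of 495, while 20_18845 and 1_3033 held places 173 and 234 in the authors' deposited table. The limma order of the 4 was another, with 20_18845 the first of the rows higher with RU486.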

How the data were processed

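Libraries were made with the Illumina TruSeq small RNA kit, per the labels' protocols. The submitters' processing notes name cutadapt 1.11, edgeR and the sheep build Oar_v3.1; the aligner and the miRNA caller are not given in the sources here. The deposited vesicle table holds a normalized signal. In every column 100% of values fell within 0.1 read of a whole number of reads, which gave the reads back, and TMM factors recomputed from these differed from the authors' by at most 2.3e-08. The authors' fold is a signed score, and the authors' adjusted p-value stands beside it, per the file headers. The 10 endometrium columns of values per library match no label and were not used.

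Vesicle rows with a mean of at least 10 normalized CPM (229 rows, with 99.9% of the reads) were fitted with limma 3.58.1 (trend, R 4.3.3) on log2(value + 1), adjusted by Benjamini-Hochberg, with calls at 0.05. edgeR 4.0.16 (quasi-likelihood) and DESeq2 1.42.0 on recovered reads were alternatives, checked with limma on simulated data. This scale understates changes of low rows. Correlations used exact permutation of libraries within treatments (576 arrangements, 2-sided, smallest p 0.00174 for a single arrangement), and level ratios used exact sign-flips (256, 2-sided). These permutation p-values were added to the design. Named rows were the 4 rows, rows listed with the same miRNA number, rows numbered within 20, the 3 most correlated rows, the next 3 rows outside the choice and a list of mirtrons. The 4 rows and the lists were chosen with earlier results of these data known. Treatments were given to different ewes. Libraries of a group were taken to be separate animals, which the vesicle columns do not state. Sequences and coordinates of these rows were not used here.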

Additional observations from a re-analysis of the deposited data

How the results depend on the processing

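The log2 differences of 20_18845, 1_1871 and 1_3033 moved by less than the within-treatment SD in all 19 alternatives run, and kept their sign. With 1 library left out they ranged from 1.10 to 1.38 for 20_18845, from 0.92 to 1.38 for 1_1871, from 1.20 to 1.79 for 13_7667 and from 1.05 to 2.04 for 1_3033. That of 13_7667 moved in 1 alternative, to 2.26 without the 3 shallowest libraries, which was chosen after seeing the data, as was edgeR without a filter. The number of rows called between treatments, 1 in limma, was 4 with DESeq2, 6 with depth as a covariate and 6 with edgeR without a filter. It ranged from 0 (without P04, R01, R03 or R04) to 2 (without P02). The median r among the 4 rows was 0.39 (without P03) to 0.64 (without P01) with 1 library left out, 0.69 under library totals and 0.79 without the 3 shallowest libraries. The share of reads in the 4 rows, 0.350 percentage points higher with RU486, ranged from 0.285 to 0.422 with 1 library left out. The treatments were given to different ewes, so their comparison is unpaired by design. Vesicle libraries could not be paired with endometrium libraries of the same ewe, because the vesicle columns carry no ewe or replicate number from the labels. Endometrium libraries were not refitted under other settings, since its columns match no label. Depth limits the rows most in P01, P04 and R04, where 1_1871 had 39, 62 and 71 reads.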
